A study of Mus musculus with 6 samples.

Results

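Housekeeping reference genes are the transcripts that a panel carries as a yardstick for all its other genes, and 10 of them were followed here in splenocytes, the cells isolated from spleen, under estrogen treatment. They were G6pdx, Sdha, Hprt, Gusb, Oaz1, Rpl19, Eef1g, Ppia, Tbp and Tubb5, taken as the rows of the deposited table whose RefSeq transcript maps to these mouse symbols. All 10 were found among 561 gene rows. The mice were female NZB/WF1 hybrids, which are prone to a lupus-like disease. They were given implants at 6 to 7 weeks of age and kept for 9 weeks with 17-beta estradiol (E2), with 17-alpha-ethinyl estradiol (EE) or with an empty placebo implant. Each group held 2 samples, E2 replicates 1 and 2, EE replicates 11 and 14, and placebo replicates 22 and 26, and all were of the same strain and sex. Total RNA was read with the NanoString nCounter mouse immunology panel, in which colour-coded probes hybridise to RNA and are counted without amplification. The sources used here give no implant doses and do not say whether each sample was 1 mouse. The p-values therefore cover the differences among these samples, which may be technical.

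A reference gene is useful where its RNA makes up a constant part of the sample whatever the treatment does. The 10 genes serve different functions so that no single pathway moves all of them. G6pdx encodes glucose-6-phosphate dehydrogenase, the entry enzyme of the pentose phosphate pathway, which makes NADPH. Sdha encodes the flavoprotein subunit of succinate dehydrogenase in the citric acid cycle and respiratory chain, Hprt the purine salvage enzyme hypoxanthine phosphoribosyltransferase, and Gusb the lysosomal hydrolase beta-glucuronidase. Oaz1 encodes ornithine decarboxylase antizyme, which limits polyamine synthesis. Rpl19 is a protein of the large ribosomal subunit and Eef1g a subunit of a translation elongation factor. Ppia encodes cyclophilin A, a protein folding enzyme, Tbp the TATA-binding protein of transcription initiation, and Tubb5 a beta-tubulin of the cytoskeleton. In spleen these transcripts come from every cell type, and in bulk RNA fewer cells of a type and less RNA per cell cannot be told apart.

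The regions just before the transcription start are shown for the 2 genes with the largest increases in EE, for the gene with the largest decrease there and for the most level gene. Each line holds 250 bases upstream of the start, 5′ to 3′ on the gene's strand, from RefSeq on GRCm38.p6, and capitals mark matches, on either strand, to the motifs listed after the sequences. For Rpl19, which has 2 windows in the table, the first is shown.
G6pdx, chrX:74428881-74429130, minus strand: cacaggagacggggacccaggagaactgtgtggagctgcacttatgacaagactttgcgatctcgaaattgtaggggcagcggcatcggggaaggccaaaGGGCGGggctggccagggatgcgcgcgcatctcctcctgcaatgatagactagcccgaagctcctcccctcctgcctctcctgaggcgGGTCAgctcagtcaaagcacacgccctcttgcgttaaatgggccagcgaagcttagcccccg
Oaz1, chr10:80826406-80826655, plus strand: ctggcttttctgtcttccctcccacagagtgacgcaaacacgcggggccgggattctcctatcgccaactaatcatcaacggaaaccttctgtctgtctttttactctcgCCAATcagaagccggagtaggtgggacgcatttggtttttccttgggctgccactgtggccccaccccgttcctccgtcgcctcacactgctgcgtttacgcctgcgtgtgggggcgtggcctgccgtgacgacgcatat
Rpl19, chr11:98026460-98026709, plus strand: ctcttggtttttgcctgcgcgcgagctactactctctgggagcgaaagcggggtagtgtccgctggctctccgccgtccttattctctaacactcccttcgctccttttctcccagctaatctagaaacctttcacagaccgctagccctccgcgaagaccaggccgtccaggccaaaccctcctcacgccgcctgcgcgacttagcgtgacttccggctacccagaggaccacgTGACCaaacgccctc
Gusb, chr5:130003050-130003299, minus strand: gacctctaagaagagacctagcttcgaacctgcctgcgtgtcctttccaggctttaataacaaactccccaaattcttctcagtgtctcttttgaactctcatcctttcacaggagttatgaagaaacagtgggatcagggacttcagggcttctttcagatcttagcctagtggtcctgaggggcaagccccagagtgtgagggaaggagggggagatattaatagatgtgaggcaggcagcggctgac

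Motifs were searched in windows that run from 250 bases before to 50 after the start, on both strands, and 9 of the 10 genes matched the table, with 10 windows. The full estrogen response element, an inverted pair of GGTCA sites with any 3 bases between them, was in 0 of these 10 windows and in 0.07% of all 32851 windows. A single GGTCA, which the full element contains, was in windows of G6pdx and Rpl19 and in 40.5% of all windows. In the G6pdx line GGTCA stands on the printed strand, and in the Rpl19 line as its reverse complement. GGGCGG was in windows of 6 of the genes (G6pdx, Hprt, Ppia, Rpl19, Tbp and Tubb5) and in 35.7% of all windows. CCAAT was in those of Oaz1, Sdha and Tubb5 (37.4% of all), GATAA in those of Hprt, Rpl19 and Tubb5 (25.4%), and TATAAA in those of Oaz1 and Ppia (13.6%). In Oaz1 the TATAAA match lies across the start and is only partly printed. The Gusb window held none of these motifs. These matches describe letters in a window and do not show binding.

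The deposited values were level on reference genes. The labels count 14 internal references in the panel, and 12 could be named, the 10 described here with Alas1 and Polr1b. When the 12 were joined by 2 rows that the gene table did not name, NM_001001303.1 and NM_009089.2, the geometric mean of the 14 rows lay between 1415.52 and 1416.37 in all 6 samples, a range of 0.0599%. Of 66 pairs of unnamed rows tried in this place, the next best left a range of 1.76%. The values were therefore treated as already scaled on these 14 rows and rounded, not as raw counts, and the depth behind them is unknown. A fold change on this scale is a change relative to the mean of the 14 reference rows, and each of the 10 genes is itself 1 of the 14. The geometric mean of the 10 genes alone was 1778 and 1747 in E2, 1774 and 1821 in EE, and 1702 and 1653 in placebo.

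**Figure D1:**
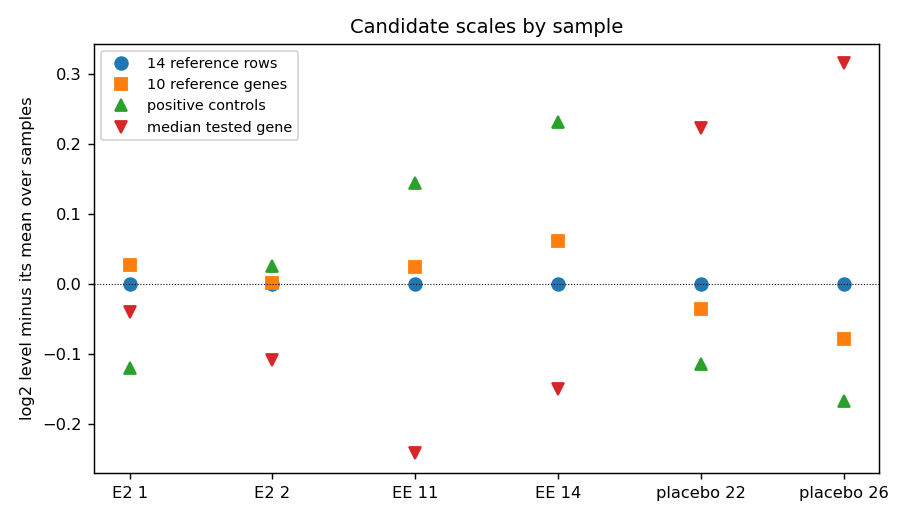
Log2 level of 4 candidate scales in each of the 6 samples (x axis), minus the scale's own mean over the samples (y axis, log2 units). The circles of the 14 reference rows lie on 0, while the positive controls were highest in both EE samples and the median tested gene was highest in both placebo samples. The median tested gene is drawn here as the median value in each sample, not as the centred median used for scaling.

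Other yardsticks were not level. The geometric mean of the 6 spiked-in positive controls was 701 and 775 in E2, 841 and 894 in EE, and 703 and 678 in placebo. Relative to these controls the 14 reference rows stood at 2.02 and 1.83 in E2, at 1.68 and 1.58 in EE, and at 2.01 and 2.09 in placebo. The reference rows were thus lowest, against the spiked-in controls, in the EE samples. The median of the 457 tested genes, those with a mean value of at least 20, was 366 and 349 in E2, 318 and 339 in EE, and 439 and 468 in placebo. On the log2 scale these medians differed from placebo by -0.34 in E2 and by -0.47 in EE. Scaling on the median tested gene used another quantity, the median over these genes of each gene's log2 value minus its mean over the samples. It would raise every log2 fold change by 0.56 for E2 against placebo and by 0.68 for EE against placebo. Scaling on the positive controls would lower them by 0.09 and 0.33. Gene totals ran from 646299 to 863942 per sample, and the 10 genes made up 6.71% to 6.79% of them in E2, 7.76% to 7.94% in EE and 6.50% to 7.03% in placebo.

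The RNA of cell type markers differed between the groups on the deposited scale. All 6 B cell and all 6 T cell markers were on the panel and above the background of the negative controls in at least 1 sample, as were all the NK cell, neutrophil, erythroid, megakaryocyte, platelet and macrophage markers found on the panel. Summed values of 6 neutrophil markers, led by S100a8 and S100a9, were 182738 to 208345 in E2, 81750 to 93532 in EE and 5764 to 9384 in placebo. All 6 lay above placebo in E2 and 5 did in EE, the exception being Csf3r, with 208 and 222 in E2, 110 and 104 in EE, and 163 and 108 in placebo. Summed values of 7 erythroid, megakaryocyte and platelet markers were 16006 to 16229 in E2, 20402 to 21297 in EE and 2497 to 3228 in placebo, with 6 of the 7 above placebo in E2 and 7 in EE. The 6 T cell markers together had 6256 to 7475 in E2, 4865 to 5535 in EE and 13474 to 15169 in placebo. B cell markers had 22008 to 26442 in E2, 19638 to 20286 in EE and 37529 to 40699 in placebo, and the 4 NK cell markers 729 to 1152 in E2, 712 to 852 in EE and 3049 to 3069 in placebo. Every marker of these 3 lists lay below placebo in both estrogen groups. Of all tested genes, 67.6% lay below placebo in E2 and 70.0% in EE, while 18.2% and 18.8% lay above it. The 5 macrophage markers summed to 6646 to 6682 in E2, which overlapped placebo, 10212 to 11589 in EE and 5544 to 6739 in placebo, with 4 of the 5 above placebo in EE. The part of these shifts in the values of the reference genes was not tested.

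**Figure D2:**
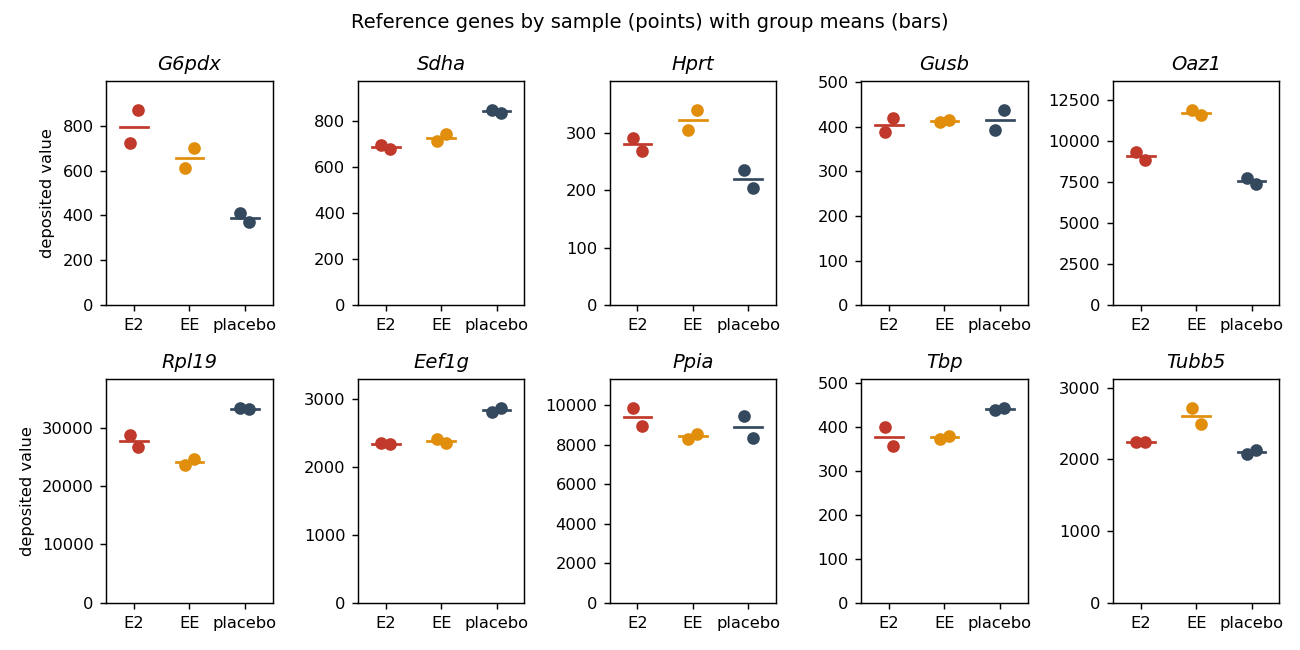
Deposited value (y axis, linear from 0, reference-scaled barcode count) of each of the 10 reference genes in the samples of each group (points), with the group mean (bar), in panels of E2, EE and placebo. G6pdx, Hprt, Oaz1 and Tubb5 lie higher in both estrogen groups than in placebo, Sdha, Rpl19, Eef1g and Tbp lie lower, and Gusb and Ppia overlap.

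Among the metabolic enzymes, G6pdx changed most. Its values were 724 and 869 in E2, 613 and 700 in EE, and 413 and 369 in placebo. Every estrogen sample lay above both placebo samples, and the E2 samples lay above the EE samples. The log2 fold change was 1.02 ± 0.16 (SE) for E2 against placebo, or 2.03-fold, and 0.75 ± 0.16, or 1.68-fold, for EE against placebo. Both passed limma's moderated test on log2 values with Benjamini-Hochberg adjustment over all 457 tested genes (adjusted p = 6.83e-04 and 0.00223). The E2 call held under all 12 alternative settings, with log2 fold changes of 0.89 to 1.58, and the EE call was lost when scaled on the positive controls (0.42, adjusted p = 0.0700). Its adjusted p in EE ran from 1.97e-06 to 0.0700 across the alternatives.

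Hprt, the purine salvage enzyme, had values of 290 and 269 in E2, 304 and 339 in EE, and 236 and 204 in placebo. The groups did not overlap, and EE was highest. Against placebo it rose in EE, with a log2 fold change of 0.55 ± 0.15 (adjusted p = 0.00844, limma), while in E2 the value was 0.35 ± 0.15 with an adjusted p of 0.0633. The EE call was lost without EE replicate 14 (0.47, adjusted p = 0.0862) and when scaled on the positive controls (0.22, adjusted p = 0.344), with a range over the alternatives of 6.42e-04 to 0.344. Without placebo replicate 22 the E2 value of Hprt passed as well (0.45, adjusted p = 0.0402).

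Sdha, the respiratory chain enzyme, ran the other way, with 699 and 681 in E2, 713 and 744 in EE, and 848 and 838 in placebo. All 4 estrogen samples lay below both placebo samples, but neither difference passed the test (log2 fold changes of -0.29 ± 0.14 in E2 and -0.21 ± 0.14 in EE, adjusted p = 0.0812 and 0.177, limma). In E2 Sdha passed in 1 of the 12 alternatives, when scaled on the 10 genes (-0.36, adjusted p = 0.0318). In EE it passed in 2, scaled on the positive controls (-0.54) and, in the other direction, on the median tested gene (0.47). Gusb, the lysosomal hydrolase, was the most level of the 10. It had 388 and 419 in E2, 410 and 415 in EE, and 393 and 437 in placebo, a highest value 1.13 times the lowest. Its 95% intervals against placebo ran from -0.36 to 0.28 on the log2 scale in E2 and from -0.33 to 0.31 in EE.

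Oaz1, the antizyme of polyamine control, had 9338 and 8845 in E2, 11865 and 11579 in EE, and 7771 and 7365 in placebo. The 3 groups were separate, in the order EE, E2 and placebo from the highest down. The log2 fold change against placebo was 0.63 ± 0.14 in EE (1.55-fold, adjusted p = 0.00243, limma) and 0.26 ± 0.14 in E2 (adjusted p = 0.108). When scaled on the positive controls the EE call was lost (0.30, adjusted p = 0.192). Across the alternatives its adjusted p in EE ran from 5.40e-06 to 0.192.

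The translation genes had their lowest values under estrogen. Rpl19 had 28743 and 26770 in E2, 23571 and 24691 in EE, and 33372 and 33183 in placebo. It fell in EE (log2 fold change -0.46 ± 0.14, adjusted p = 0.0122, limma), and its E2 value of -0.26 ± 0.14 had an adjusted p of 0.112. The EE call of Rpl19 was lost without EE replicate 11 (-0.43, adjusted p = 0.119) and without EE replicate 14 (-0.50, adjusted p = 0.0683), and the value turned to 0.22 (adjusted p = 0.0900) when scaled on the median tested gene. Its adjusted p ranged from 5.39e-04 to 0.119 over the alternatives. Eef1g had 2352 and 2339 in E2, 2418 and 2356 in EE, and 2818 and 2870 in placebo. Its samples were separate in the same direction, but the log2 fold changes of -0.28 ± 0.14 in E2 and -0.25 ± 0.14 in EE did not pass (adjusted p = 0.0901 and 0.111). Of the 12 alternatives, 2 gave a call for Eef1g in E2 and 3 in EE. Its values over them ran from -0.37 to 0.29 in E2 and from -0.58 to 0.43 in EE.

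The other 3 genes did not pass the test on this scale. Tbp, the transcription factor, had 399 and 357 in E2, 372 and 380 in EE, and 439 and 443 in placebo, with log2 fold changes of -0.22 in E2 and -0.23 in EE (adjusted p = 0.174 and 0.156, limma). Of the 12 alternatives, 1 gave a call for Tbp in E2 and 3 in EE. Its values over them ran from -0.32 to 0.34 in E2 and from -0.56 to 0.45 in EE. Ppia, cyclophilin A, had 9865 and 8936 in E2, 8308 and 8562 in EE, and 9442 and 8342 in placebo, and both estrogen groups overlapped placebo. Tubb5, the tubulin, had 2237 and 2245 in E2, 2716 and 2491 in EE, and 2074 and 2132 in placebo. Its EE value of 0.31 ± 0.14 on the log2 scale had an adjusted p of 0.0657, and its E2 value of 0.09 ± 0.14 one of 0.569. With a variance trend the EE value passed (adjusted p = 0.0234), and over the alternatives its adjusted p ran from 0.00120 to 0.922. For Tbp and Tubb5 the samples of both estrogen groups lay apart from placebo.

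By counts, E2 had 1 of the 10 genes called higher and 0 called lower than placebo, where 12.5% of all tested genes were called higher and 59.5% lower. At an unadjusted p under 0.05 by limma these were 2 and 0. In EE against placebo 3 were called higher and 1 lower, where 15.5% of tested genes were called higher and 63.9% lower. The median log2 fold change of the 10 genes was 0.02 in E2 and -0.04 in EE, beside -0.56 and -0.69 for all tested genes, and the deposited scale itself holds the reference rows near 0. When scaled on the median tested gene, 8 of the 10 were called higher in E2 and 9 in EE, and 0 lower in either. On that scale 27.4% of all tested genes were called higher and 19.3% lower in E2, and 29.1% higher and 23.9% lower in EE. When scaled on the positive controls, 0 of the 10 were called higher in EE and 4 lower, where 8.97% of tested genes were called higher and 73.1% lower. Samples of E2 and placebo did not overlap for 8 genes, 4 higher and 4 lower (18.2% and 67.6% of tested genes), and the same counts held for EE and placebo (18.8% and 70.0%). Both comparisons share the placebo samples.

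**Figure D3:**
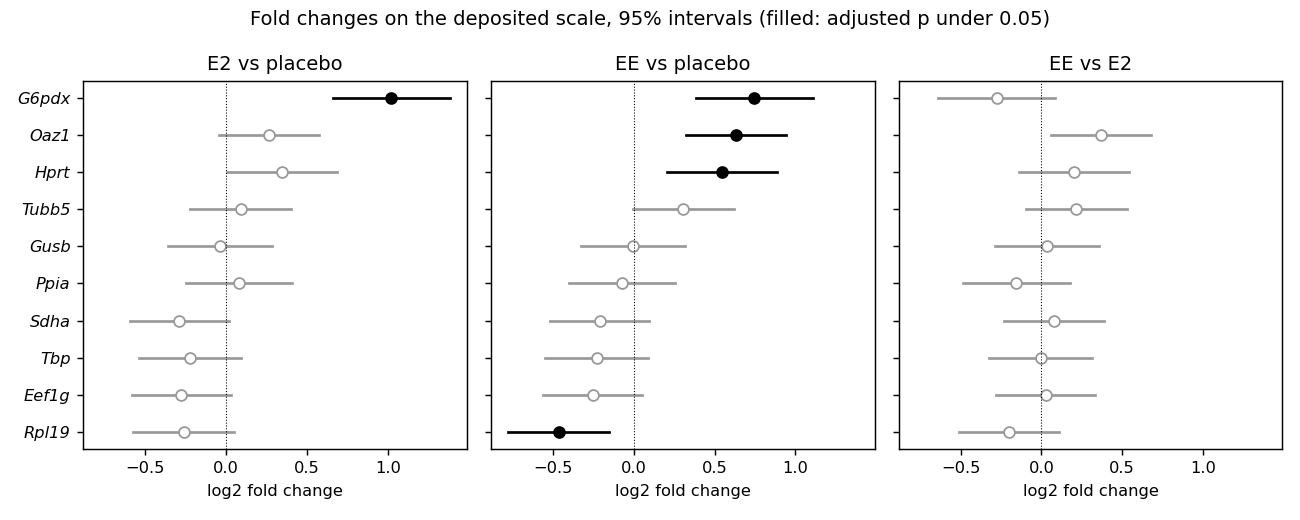
Log2 fold change (x axis, deposited scale) of the 10 reference genes (y axis) with 95% intervals, for E2 against placebo, EE against placebo and EE against E2. Filled points passed an adjusted p of 0.05, which were G6pdx in E2 and G6pdx, Oaz1, Hprt and Rpl19 in EE, while 0 passed between EE and E2.

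E2 is the natural estrogen and EE carries an added ethynyl group at the 17-alpha carbon. This is 1 pair of compounds, and since doses were not given, matched doses are not established. On the deposited scale 0 of the 10 reference genes passed between EE and E2 by limma, with 1 at an unadjusted p under 0.05, where 2.19% of tested genes were called higher and 4.60% lower. That 1 gene was Oaz1, higher in EE by 0.37 on the log2 scale (95% interval 0.06 to 0.68, adjusted p = 0.149). G6pdx had a difference of -0.28 (-0.64 to 0.09) and Tubb5 one of 0.21 (-0.10 to 0.53). For Rpl19 it was -0.20 (-0.51 to 0.11), and for Hprt 0.20 (-0.14 to 0.54). For Tbp, where the difference was -0.01, the interval still ran from -0.32 to 0.31, so differences of up to that size are not excluded by these samples. Samples of EE and E2 did not overlap for 8 of the 10 genes, 5 higher and 3 lower in EE, where this held for 17.9% and 40.7% of tested genes.

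Ratios between 2 reference genes in the same sample do not depend on how samples were scaled. All 45 pairs were examined. The value of Sdha over that of Eef1g was the most constant ratio, at 0.297 and 0.291 in E2, 0.295 and 0.316 in EE, and 0.301 and 0.292 in placebo. The groups overlapped, and the SD of this ratio over the 6 samples was 0.04 on the log2 scale. Sdha over Tbp and Eef1g over Tbp followed, each with an SD of 0.06. G6pdx over Rpl19 was the least constant, with an SD of 0.66. It was 0.0252 and 0.0325 in E2, 0.0260 and 0.0284 in EE, and 0.0124 and 0.0111 in placebo, so that every estrogen sample lay more than 2-fold above both placebo samples. Oaz1 over Rpl19 was 0.325 and 0.330 in E2, 0.503 and 0.469 in EE, and 0.233 and 0.222 in placebo, with the 3 groups apart. Hprt over Rpl19 was 0.0101 and 0.0100 in E2, 0.0129 and 0.0137 in EE, and 0.00707 and 0.00615 in placebo.

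Each ratio was tested by fitting all genes with 1 reference gene as the only scale, and a pair was counted where it passed both ways round, with each of its genes in turn as the scale. In E2 against placebo 17 of 45 pairs changed by this rule, in EE against placebo 23, and in EE against E2 1. With a single reference gene as the scale, 58.3% to 93.0% of all tested genes were called in E2 against placebo, 64.9% to 87.7% in EE against placebo and 5.70% to 61.2% in EE against E2. G6pdx changed against all 9 others in E2 and against 6 of 9 in EE, beside 93.0% and 85.5% of all tested genes called with G6pdx as the scale. With Hprt as the scale these shares were 80.7% in E2 and 87.3% in EE, and with Oaz1 79.8% and 87.7%. Grouped by direction after their values were seen, G6pdx, Hprt and Oaz1 formed 12 pairs with Sdha, Rpl19, Eef1g and Tbp. Tubb5, also above placebo in both estrogens, was left out of this grouping. Its pairs with the last 4 genes did not pass in E2 (limma, higher of the 2 adjusted p from 0.0713 to 0.133) but passed in EE (0.00210 to 0.0140). All 12 pairs of the grouping changed in both estrogens, while 0 of the 6 pairs among the last 4 genes did. Since these same values chose the genes, such counts do not test the grouping. With each sample left out in turn, 12 of these 12 calls held in EE and 7 in E2, where those of Hprt with Sdha, Rpl19, Eef1g and Tbp were lost without E2 replicate 1 (limma, higher of the 2 adjusted p from 0.0503 to 0.0643) and those of Hprt and Oaz1 with Tbp without E2 replicate 2 (0.0813 and 0.0716). Of all pairs called, 11 of 17 held in E2 and 14 of 23 in EE. G6pdx with Hprt was lost in E2 without E2 replicate 2 (0.121), which left G6pdx with 8 calls there, and the 9 pairs lost in EE each included Gusb, Ppia or Tubb5. The ratio of G6pdx to Sdha rose by 1.31 on the log2 scale in E2 (adjusted p = 4.02e-04, limma) and by 0.96 in EE (adjusted p = 0.00106). The 1 pair that differed between EE and E2 was Oaz1 over Rpl19, higher in EE by 0.57 (95% interval 0.30 to 0.83, adjusted p = 0.0310). That call was lost when any 1 of the 4 estrogen samples was left out (adjusted p = 0.134 without E2 replicate 1, 0.162 without E2 replicate 2, 0.197 without EE replicate 11 and 0.103 without EE replicate 14) and without a filter on low values (0.0921). Over all alternatives run on the ratios its adjusted p ranged from 8.56e-04 to 0.197.

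**Figure D4:**
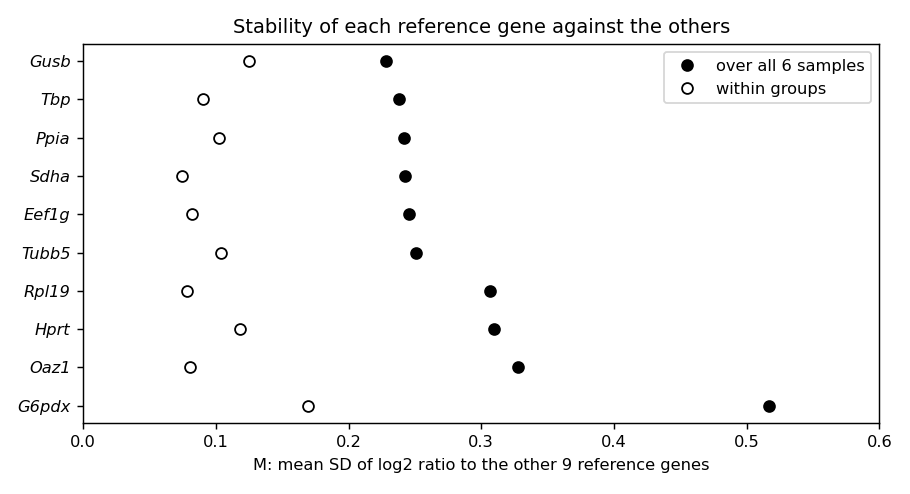
M, the mean SD of the log2 ratio of a reference gene to each of the other 9 (x axis, log2 units), for the 10 genes (y axis) over all 6 samples (filled) and within groups (open). Every filled point lies right of its open point, and G6pdx is highest at 0.517 over all samples.

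The stability measure M, the mean SD of the log2 ratio of a gene to each of the other 9, is also free of scaling. It was lowest for Gusb (0.228), followed by Tbp (0.238), Ppia (0.241), Sdha (0.242), Eef1g (0.246) and Tubb5 (0.251), which lay close together. Rpl19 (0.307), Hprt (0.309) and Oaz1 (0.327) were next, and G6pdx was highest (0.517). Within groups, where treatment does not enter, M was smaller for each gene, from 0.0743 for Sdha to 0.170 for G6pdx. Gusb, the lowest over all samples, had an M of 0.125 within groups, higher than every other gene except G6pdx. G6pdx was the least stable in each of the 6 sets with 1 sample left out (M of 0.445 to 0.568). Gusb was the most stable in 5 of them, and Tubb5 was without EE replicate 11. On the deposited scale the SD of log2 values over the 6 samples was 0.06 for Gusb, lower than in all but 4 of the 457 tested genes, and 0.49 for G6pdx, which exceeded 59.3% of tested genes. The deposited scale was level over 14 rows that include these 10, so their SD on it is not independent of the scale.

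The choice of a single reference gene as the scale changed how the rest of the panel read. Scaled on G6pdx alone, E2 had 23 genes called higher and 401 called lower than placebo, against 92 and 200 when scaled on Rpl19 alone and 93 and 180 on Sdha alone. In EE against placebo the split was 23 higher and 367 lower on G6pdx, 30 and 370 on Oaz1, and 113 and 183 on Rpl19. Genes called lower outnumbered those called higher with each of the 10 as the scale in both comparisons with placebo. Between EE and E2 the majority turned with the scale. It was 6 higher and 273 lower on Oaz1, 9 and 82 on Tubb5, 11 and 80 on Hprt, but 36 higher and 10 lower on Rpl19, 28 and 7 on G6pdx and 30 and 18 on Ppia. In every comparison the values of the scale gene shift all other genes together, so these calls are not independent of each other. On the deposited scale the difference of Oaz1 itself between EE and E2, 0.37, did not pass (adjusted p = 0.149, limma).

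**Figure D5:**
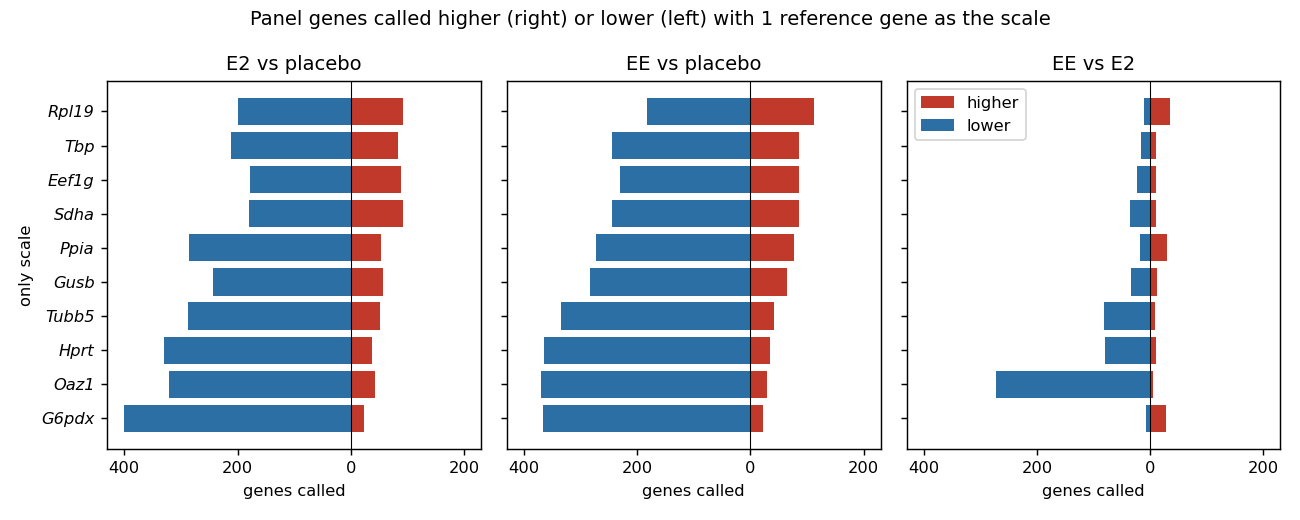
Number of tested panel genes called higher (right of 0) or lower (left of 0) by limma at an adjusted p under 0.05 when 1 reference gene (y axis) was the only scale, for E2 against placebo, EE against placebo and EE against E2. Scaled on Oaz1, 273 genes were lower in EE than in E2, and scaled on Rpl19, 10 were.

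Of the 4 further rows among the 14 references, 3 passed the test in at least 1 estrogen group and 1 did not. Among all tested genes 12.5% were called higher and 59.5% lower in E2, and 15.5% higher and 63.9% lower in EE. Calls in most of these rows are thus no more than the panel as a whole showed. Alas1, the first enzyme of haem synthesis in most tissues, had 184 and 226 in E2, 182 and 147 in EE, and 138 and 129 in placebo. It rose in E2 (log2 fold change 0.61 ± 0.17, adjusted p = 0.0104, limma), and its EE value of 0.29 ± 0.17 had an adjusted p of 0.138. Polr1b, a subunit of RNA polymerase I, had 121 and 125 in E2, 136 and 125 in EE, and 178 and 192 in placebo. It fell by 0.58 in E2 and by 0.50 in EE (adjusted p = 0.00494 and 0.00928). The unnamed row NM_009089.2 had 1536 and 1394 in E2, 1426 and 1401 in EE, and 2172 and 3060 in placebo, and fell by 0.82 in E2 and by 0.87 in EE (adjusted p = 0.00347 and 0.00198). Its placebo samples differed widely from each other, but both lay above all 4 estrogen samples. The unnamed row NM_001001303.1 ran from 11304 to 12666 over the 6 samples, with log2 fold changes of 0.08 in E2 and 0.09 in EE (adjusted p = 0.626 and 0.582, limma).

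The panel genes with the most similar course were found by the root mean square difference of log2 values, centred per gene, over the 6 samples. For Oaz1 they were the lipopolysaccharide receptor gene Tlr4 (0.06) and the proteasome genes Psmd7 (0.06) and Psmc2 (0.10), and for Hprt the same 3 genes, each at 0.05 or 0.06. Psmd7 had values of 1159 and 1161 in E2, 1349 and 1438 in EE, and 982 and 909 in placebo. Nearest to Gusb were Casp2 (0.05), the cytokine gene Mif (0.06) and the lymphotoxin receptor gene Ltbr (0.07).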

How the data were processed

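The authors deposited 1 table of whole-number values per probe for 6 samples, taken here as a score, that is nCounter barcode counts already scaled on reference genes. This rests on the values alone, since the sources used here state no background or normalisation step. The table held 561 gene rows and 14 spiked-in controls, 6 positive (mean of 20 or more) and 8 negative. Symbols came from RefSeq transcripts of GRCm38.p6, which named 549 gene rows and left 12 unnamed. The planned count-based test was replaced by limma 3.58.1 in R 4.3.3 on log2(value + 1), because the values are not raw counts. Fold changes on this scale understate changes of low genes. All 6 samples entered 1 model of group means with 3 residual degrees of freedom, without further scaling. Genes with a mean of at least 20 were tested, 457 in all, the 10 reference genes among them, with two-sided p-values adjusted by Benjamini-Hochberg and a threshold of 0.05. The fit was tested on simulated data. All 10 genes, the other named references and the nearest panel genes of some of the 10 are named by rule, and 1 such result is not reported here. Members and lists were chosen with earlier results of these data known. Alternatives were scalings on positive controls, on the 10 genes or on the median tested gene, no filter, a pseudocount of 10, a variance trend and each sample left out.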

Additional observations from a re-analysis of the deposited data

How the results depend on the processing

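No paired analysis was possible because the sample numbers in the labels are not shared between groups. Fits of a count model with trimmed-mean scaling and with DESeq2 were not run, since the values are not counts. Scaled on the median tested gene, an alternative chosen after seeing the data like the pseudocount of 10 and the variance trend, 8 reference genes rose in E2, and 9 rose and 0 fell in EE, relative to placebo (27.4% of all tested genes rose and 19.3% fell in E2, and 29.1% and 23.9% in EE). Log2 fold changes that turned there were 0.27 for Sdha, 0.52 for Gusb, 0.30 for Rpl19, 0.29 for Eef1g and 0.34 for Tbp in E2. In EE they were 0.47 for Sdha, 0.68 for Gusb, 0.22 for Rpl19, 0.43 for Eef1g, 0.61 for Ppia and 0.45 for Tbp, and for EE against E2 0.11 for Tbp. Scaled on positive controls, 0 rose and 4 fell in EE relative to placebo (8.97% and 73.1% of tested genes). Ppia turned to -0.012 and Tubb5 to -0.0015 in E2 against placebo, and Tubb5 to -0.022 in EE. For EE against E2, Sdha turned to -0.16, Hprt to -0.034, Gusb to -0.20, Eef1g to -0.21 and Tubb5 to -0.020. Scaled on the 10 reference genes, 3 were lower in E2 and 3 in EE than in placebo (63.5% and 68.5% of tested genes), and Eef1g turned to -0.0029 for EE against E2. These turns follow from the shift of all fold changes by each scale. With a variance trend 1 was lower in E2 than in placebo (Eef1g), 4 rather than 3 were higher in EE (Tubb5 added, 0.31, adjusted p = 0.0234, limma), and 1 was higher in EE than in E2 (Oaz1). Under that setting 59.5% of all tested genes were called lower in E2 than in placebo. In EE 15.8% were called higher than in placebo and 5.25% higher than in E2. The pairs that differed between EE and E2, 1 as reported, numbered 0 without a filter, 2 with a pseudocount of 10 and 3 with a variance trend, and the cause was not tested.

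With 1 sample left out, a lone sample is assumed to vary like the other groups. The genes called against placebo on all 6 samples kept their direction in these fits. In E2 the lowest log2 fold change of G6pdx was 0.89. In EE the lowest was 0.65 for G6pdx, 0.44 for Hprt and 0.59 for Oaz1, and Rpl19 ran from -0.50 to -0.43. Pairs between EE and E2 numbered 0 to 3, with 0 without E2 replicate 2, EE replicate 11 or EE replicate 14 and 3 without either placebo sample. Near 0 the sign turned for Gusb (-0.12 to 0.037) and Ppia (-0.0081 to 0.17) in E2 against placebo, for Gusb (-0.083 to 0.070) and Ppia (-0.16 to 0.016) in EE against placebo, and for Gusb (-0.023 to 0.088) and Tbp (-0.086 to 0.075) in EE against E2. Without a filter or with a pseudocount of 10, all 30 gene results kept their direction and their side of the threshold. With 2 samples a group and unknown depth, small differences are not resolved.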

Other observations

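Several immune genes of the panel held as constant a ratio to the 10 reference genes as those genes did among themselves. Of 438 named panel genes that were tested and are no reference, 11 had a mean SD of their log2 ratio to the 10 genes below the lowest M among the 10, that of Gusb. These means are over 10 ratios for a panel gene and over 9 for a reference gene. A panel gene's mean also includes its ratio to the reference gene it is set against, so such counts are not like for like. The count of 11 may be too high for that reason. The lowest 3, chosen after their values were seen, were the cytokine gene Mif (0.198), the interferon receptor gene Ifnar2 (0.199) and Ctnnb1, which encodes beta-catenin (0.199). Mif had values of 3119 and 3027 in E2, 3259 and 3232 in EE, and 3135 and 3212 in placebo. Ifnar2 had 943 and 880 in E2, 914 and 975 in EE, and 949 and 921 in placebo. Ctnnb1 had 1045 and 1020 in E2, 1066 and 1087 in EE, and 1129 and 1043 in placebo. Both estrogen groups overlapped placebo for Ifnar2 and Ctnnb1, and the EE samples of Mif lay above all others by small margins. G6pdx, with an M of 0.517, was less constant than 233 of the 438 genes.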
